A study of Mus musculus with 60 samples.

Results

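Genistein, the isoflavone in BIO 300, is a ligand of estrogen receptor beta, and the 9 genes described here are the receptors through which estrogen acts and the proteins that work with them. They were chosen by name among the 49315 genes of the count tables: the nuclear estrogen receptors Esr1 and Esr2, the membrane estrogen receptor Gper1, the estrogen-related orphan receptor Esrra, the p160 coactivators Ncoa1, Ncoa2 and Ncoa3, and the corepressors Nrip1 and Ncor1. Whole blood RNA was sequenced from 60 male CD2F1 mice, 5 to 6 weeks old when purchased, with 6 mice in each of 10 groups. All mice received either vehicle (water with methylcellulose and polyvinylpyrrolidone K25) or BIO 300 at 50, 100 or 200 mg/kg (Low, Med and High in the labels) by mouth, 12 doses over 6 days. Unirradiated groups at all 4 dose levels were bled either on Day 0 or on Day 1, at 24 h and 48 h from the final dose. The other 2 groups, vehicle and 200 mg/kg, were exposed to 9.2 Gy of 60Co total-body irradiation (TBI) on Day 0 and bled on Day 1. Each mouse was bled once, at death, so that Day 0 and Day 1 hold different animals, and only 1 sex and 1 strain were studied.

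A nuclear estrogen receptor that has bound its ligand sits on DNA at estrogen response elements and recruits p160 coactivators, which bring in histone acetyltransferases, while Ncor1 assembles a histone deacetylase complex and Nrip1 (RIP140) competes for the coactivator surface of the bound receptor. These coregulators are shared by many nuclear receptors and are expressed in most tissues, including blood cells. Gper1 is a G protein-coupled receptor, and Esrra controls mitochondrial genes without binding estrogen.

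Libraries held between 15099415 and 45589415 counts, with a median of 24877993.5. Marker genes of platelets, red cells, B cells, T cells, natural killer cells, neutrophils and monocytes were detected in each group. In 11 of the 60 libraries, at least 10 of 16 hepatocyte genes stood at a level of 10 or more in CPM (read counts scaled to a common library size), and albumin reached 121 to 16057 CPM in them. These libraries came from 9 of the 10 groups (mice 17, 29, 1, 9, 21, 37, 39, 43, 49, 51 and 57), with 2 in the 100 mg/kg group on Day 1, 2 in the TBI vehicle group and none in the 50 mg/kg group on Day 1. Hepatocytes express Esr1, and the differences that change with these libraries are given with and without them. The summed CPM of 8 adipocyte genes varied widely too, from 2.46 to 607 with vehicle on Day 0. It ran from 13.5 to 664 with 100 mg/kg on Day 1 and from 4.94 to 1029 with TBI vehicle. With 50 mg/kg on Day 1 it ran from 2.64 to 32.3. Which tissue the Esr1 reads came from was not tested. Blood composition also moved with treatment. The summed CPM of 7 platelet genes ranged from 1910 to 3855 with vehicle on Day 1, from 14634 to 32648 with 100 mg/kg and from 14144 to 24485 with 200 mg/kg, and that of 8 B cell genes from 1464 to 2325, from 412 to 1013 and from 253 to 845. In whole blood, fewer cells of a type and less RNA per cell cannot be told apart, and the part of cell composition in the results below was not tested.

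Promoter sequence was read for 7 of the 9 genes, in 10 RefSeq promoters, as the 250 bases before the transcription start on the mouse assembly GRCm38.p6. The search covered 3 motifs on both strands: the palindromic estrogen response element GGTCANNNTGACC, the estrogen-related receptor element TCAAGGTCA, and the half-site GGTCA, which both of the longer motifs contain. None of the 10 promoters held either longer motif, which occurred in 0.0639% and 0.387% of 32851 promoters. The half-site was found in the Esr2 promoter at 2 places and in 1 of the Nrip1 promoters, against 35.2% of all promoters. These are printed below with the promoter of Ncoa1, which had the largest TMM-scaled change on Day 1 among the 7 members with a mean of at least 1 CPM, each read 5′ to 3′ on the minus strand with half-sites in capitals.
Esr2 promoter, chr12:76177260-76177509: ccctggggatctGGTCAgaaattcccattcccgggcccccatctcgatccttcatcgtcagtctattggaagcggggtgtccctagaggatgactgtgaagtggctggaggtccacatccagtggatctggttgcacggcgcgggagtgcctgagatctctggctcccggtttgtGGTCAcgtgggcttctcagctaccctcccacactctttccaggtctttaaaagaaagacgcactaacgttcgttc
Nrip1 promoter, chr16:76373828-76374077: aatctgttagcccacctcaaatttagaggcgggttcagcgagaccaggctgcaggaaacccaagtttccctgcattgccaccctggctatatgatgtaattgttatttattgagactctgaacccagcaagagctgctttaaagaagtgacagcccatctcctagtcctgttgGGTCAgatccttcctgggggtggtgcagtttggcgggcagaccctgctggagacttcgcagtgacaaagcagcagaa
Ncoa1 promoter, chr12:4477183-4477432: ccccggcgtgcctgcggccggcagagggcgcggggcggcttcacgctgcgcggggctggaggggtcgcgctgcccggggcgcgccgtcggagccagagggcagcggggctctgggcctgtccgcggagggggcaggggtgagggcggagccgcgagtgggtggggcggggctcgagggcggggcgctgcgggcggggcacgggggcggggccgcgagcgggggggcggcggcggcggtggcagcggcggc
Of the Ncoa1 promoter's 250 bases, 85.6% were G or C, with 40 CG dinucleotides, against medians of 52.4% and 6 over all promoters. Only 1.31% of promoters held as many CG dinucleotides. A motif match is a description of the letters in this window and nothing more.

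Per kilobase of exon, coregulators were the most expressed members. Ncor1 (ENSMUSG00000018501, chr11:62316426-62458541) had the highest median level, 14.1 CPM per kb over the 60 mice, followed by Ncoa3 at 11.1, Ncoa1 at 8.72, Ncoa2 at 7.75 and Nrip1 at 4.77 CPM per kb. Esrra lay at 2.33 CPM per kb. The estrogen receptors themselves were the least expressed, with Esr1 at 0.160, Gper1 at 0.0442 and Esr2 at 0.0096 CPM per kb. By group means, each coregulator stood above each receptor per kilobase in all 10 groups, and the receptor that genistein prefers was close to the limit of detection. Below, levels are CPM with TMM library factors, each mouse being a point in the plot of members by group, and n was 6 mice a group throughout.

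**Figure D1:**
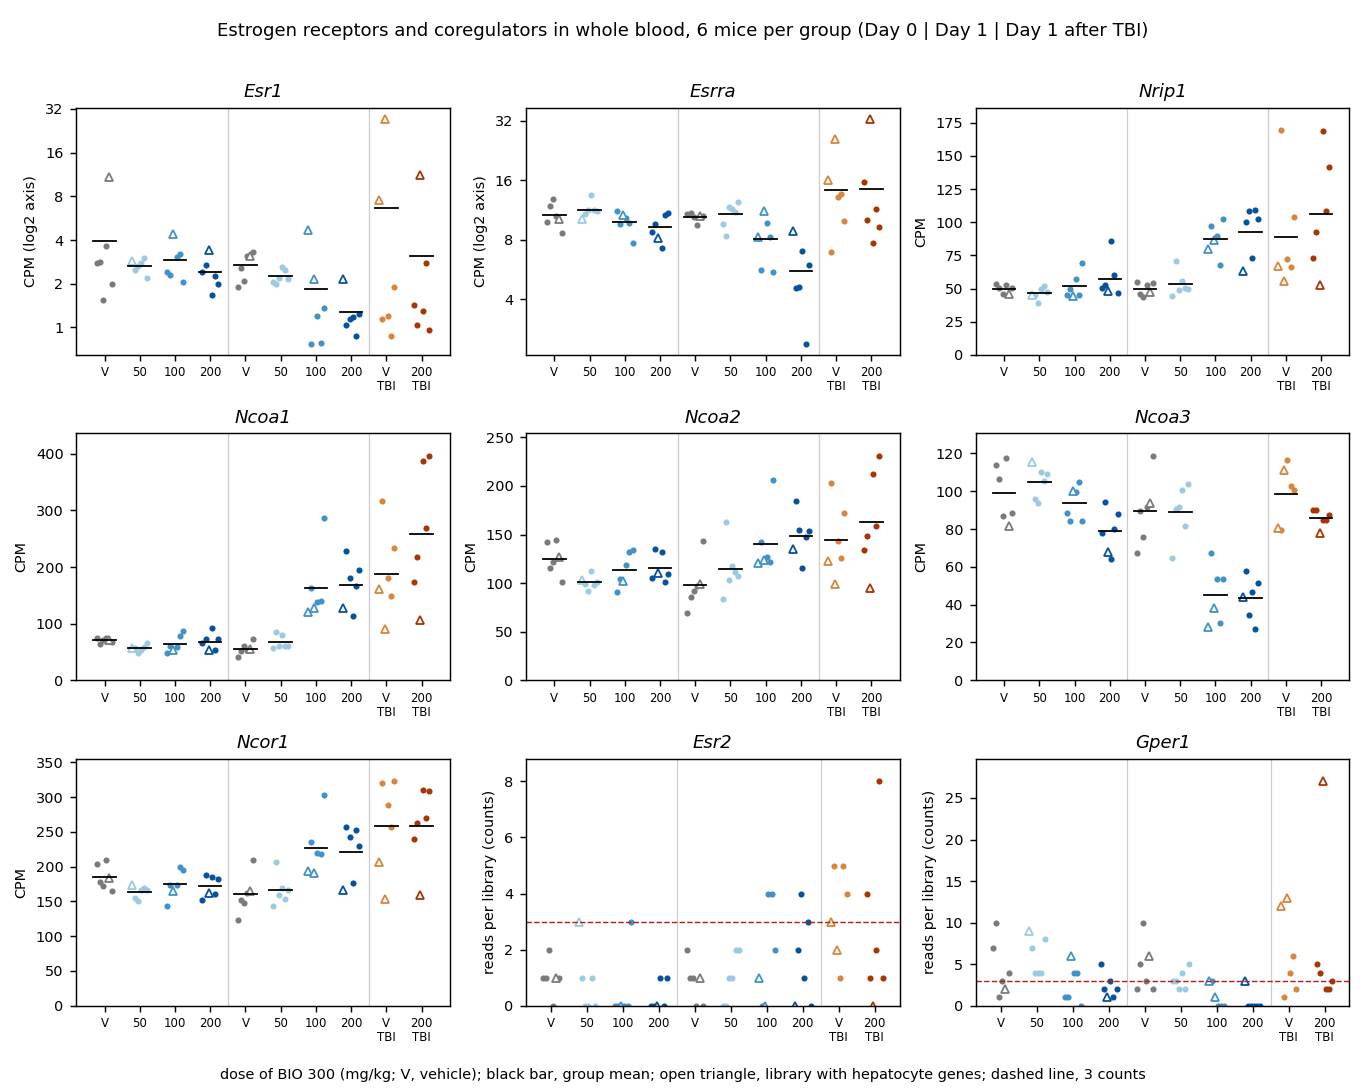
Levels of the 9 genes in each of the 60 mice, by group. The vertical axis is CPM (log2-spaced for Esr1 and Esrra) or, for Esr2 and Gper1, raw read counts with a dashed line at 3 counts; black bars in the CPM panels are group means and open triangles are libraries with hepatocyte genes. Ncoa1 sits at 41.5 to 92.2 CPM in the 6 groups from vehicle, 50 mg/kg and Day 0, and at 90.5 to 396 CPM in the other 4; these levels use TMM scaling, and with total counts the log2 fold changes at 100 and 200 mg/kg on Day 1 are 0.21 and 0.14.

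Esr2 (ENSMUSG00000021055, chr12:76120419-76177259, minus strand), which encodes estrogen receptor beta, was read 84 times in all 60 libraries together. Counts ran from 0 to 8 per mouse, 22 mice had none and 8 had more than 3. Summed over the 6 mice of a group, there were 6 counts with vehicle on Day 0 and 5, 3 and 2 with 50, 100 and 200 mg/kg. On Day 1 the sums were 5 with vehicle and 6, 11 and 10 with 50, 100 and 200 mg/kg. With TBI they were 20 with vehicle, where each mouse had at least 1 count, and 16 with 200 mg/kg. A count of 3 corresponded to 0.0552 to 0.36 CPM depending on the library, so a level of that size was not detectable in single mice. Esr2 passed the filter of 10 summed counts in all comparisons between 2 groups but 100 and 200 mg/kg against vehicle on Day 0. Its higher counts on Day 1 passed the test at 100 mg/kg (adjusted p = 0.0336) and 200 mg/kg (adjusted p = 0.038), yet these calls held in only 5 of 12 refits that each left out 1 mouse, where the adjusted p ran from 0.0174 to 0.103 and from 0.0104 to 0.128. With total counts neither passed (adjusted p = 0.348 and 0.378).

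Gper1 (ENSMUSG00000053647, chr5:139423151-139427800, plus strand) gave 231 counts in all, from 0 to 27 a mouse. The summed counts were 27 with vehicle and 36, 16 and 14 with rising dose on Day 0, and 28 with vehicle and 19, 7 and 3 with rising dose on Day 1. At 200 mg/kg on Day 1, 5 of 6 mice had no count, and the 1 mouse that did was number 43, a library with hepatocyte genes. In the fit of this group against vehicle with TMM factors, the 3 counts of mouse 43 set the call. The adjusted p was 0.0727 with that mouse and 0.00964 without it. The scaling and the fit mattered too. With mouse 43 kept, Gper1 passed with total counts (adjusted p = 0.00336) and in a single fit of all groups (adjusted p = 0.0363). By DESeq2 it did not pass (adjusted p = 0.137). The TBI groups summed to 38 counts with vehicle and 43 with 200 mg/kg, of which 27 came from mouse 57, also a library with hepatocyte genes.

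Esr1 (ENSMUSG00000019768, chr10:4611593-5005614, plus strand) encodes estrogen receptor alpha and was read 8 to 965 times per library. On Day 1 its lowest, median and highest levels were 1.89, 2.83 and 3.29 CPM with vehicle. With 50 mg/kg they were 2.01, 2.16 and 2.61 CPM, with 100 mg/kg 0.773, 1.28 and 4.72 CPM, and with 200 mg/kg 0.867, 1.16 and 2.14 CPM. The upper end of the last 2 groups came from libraries with hepatocyte genes: mice 37 and 39 stood at 4.72 and 2.16 CPM where the other 4 mice at 100 mg/kg lay between 0.773 and 1.36, and mouse 43 stood at 2.14 CPM where the other 5 at 200 mg/kg lay between 0.867 and 1.24. Esr1 fell with 200 mg/kg, with a log2 fold change of -0.99 ± 0.27 (SE, adjusted p = 0.0049), and kept that call in each of 12 refits without 1 mouse (-1.20 to -0.90), but not in 1 fit of all 60 mice (-1.06, adjusted p = 0.111). At 100 mg/kg the change was -0.48 ± 0.40 (adjusted p = 0.305) with all mice, -1.07 (adjusted p = 0.0048) without mouse 37, and -1.29 (adjusted p = 0.000927) without the libraries that held hepatocyte genes.

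On Day 0 the Esr1 ranges overlapped at all doses, with group means of 3.92 ± 3.44 (SD) CPM for vehicle and 2.67 ± 0.295, 2.90 ± 0.858 and 2.40 ± 0.609 for 50, 100 and 200 mg/kg. The vehicle mean carried mouse 17, at 10.8 CPM against 1.54 to 3.64 in the other 5. Among irradiated mice the spread was wider still: 0.879, 1.54 and 27.2 CPM (lowest, median, highest) with vehicle and 0.955, 1.36 and 11.2 with 200 mg/kg. The highest of these were again libraries with hepatocyte genes, mouse 51 at 27.2 and mouse 49 at 7.54 CPM against 0.879 to 1.89 in the other vehicle mice, and mouse 57 at 11.2 CPM against 0.955 to 2.76. Between irradiated and unirradiated vehicle mice of Day 1 the log2 fold change was 1.25 ± 0.76 (adjusted p = 0.191) with all mice and -0.98 (adjusted p = 0.00517) without those libraries, so the sign of the Esr1 difference depended on them. In 9 of the 11 libraries with hepatocyte genes Esr1 lay above every library of its group without hepatocyte genes. Esrra did so in 5 of 11, Gper1 in 4, Esr2, Ncoa3 and Ncor1 in 1 each, and Nrip1, Ncoa1 and Ncoa2 in 0. Ncor1 lay below all of those libraries in 6 of 11, Nrip1, Ncoa1 and Ncoa2 in 4 each, Ncoa3 in 3, and Esr2 and Esrra in 1 each. Neighbouring groups in the order of Esr1 means overlapped at each step. The group means ran from 1.27 to 6.64 CPM with all mice and from 1.03 to 2.63 CPM without the libraries that held hepatocyte genes.

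**Figure D2:**
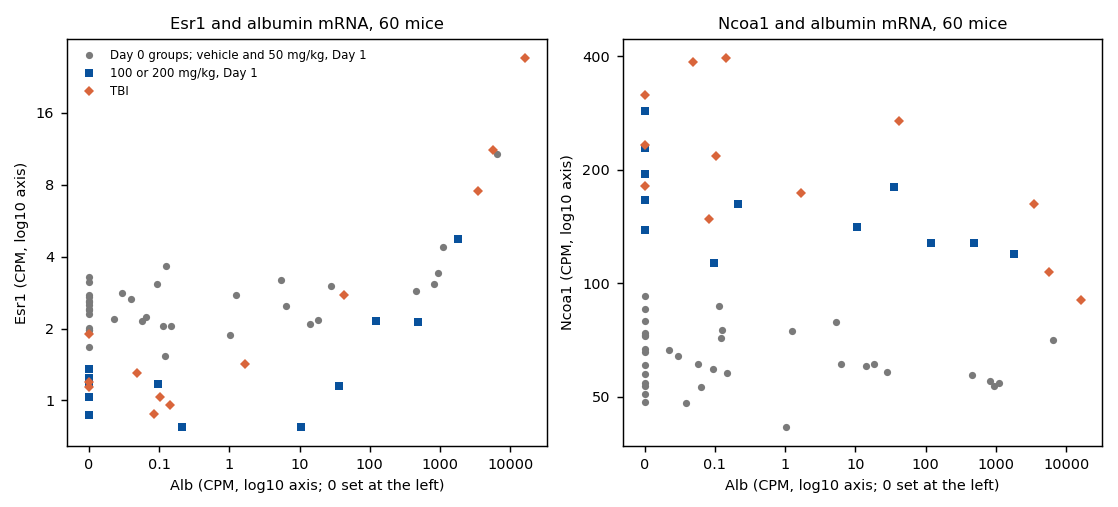
Esr1 and Ncoa1 levels (CPM, vertical) against albumin (Alb, CPM, log-spaced horizontal axis with 0 at the left) in 60 mice. Esr1 reaches 27.2 CPM at the albumin-rich end, where the 11 libraries with hepatocyte genes hold 121 to 16057 CPM of albumin; the highest Ncoa1 levels lie in mice with little albumin.

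Esrra (ENSMUSG00000024955, chr19:6910977-6921813, minus strand), the orphan receptor, shares 3.74% of its exon bases with Mir6990 and Trmt112, and those reads cannot be assigned with certainty. Vehicle mice on Day 1 ranged from 9.52 to 11.0 CPM (median 10.6). The 50 mg/kg mice ranged from 8.38 to 12.5 CPM (median 11.3), the 100 mg/kg mice from 5.52 to 11.2 CPM (median 8.30) and the 200 mg/kg mice from 2.39 to 8.88 CPM (median 5.27). Only the 200 mg/kg group lay wholly below vehicle, and it fell by 0.83 ± 0.23 on the log2 scale (adjusted p = 0.00615, -1.0 to -0.67 in the refits without 1 mouse). At 100 mg/kg the change was -0.32 ± 0.16 (adjusted p = 0.0929), -0.42 (adjusted p = 0.0299) without mouse 39, and -0.43 (adjusted p = 0.036) without the libraries with hepatocyte genes. On Day 0 means were 10.7 ± 1.48 (SD), 11.4 ± 1.11, 9.87 ± 1.21 and 9.25 ± 1.46 CPM from vehicle to 200 mg/kg, with overlapping ranges and no call.

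Of the p160 coactivators, Ncoa1 (SRC-1, ENSMUSG00000020647, chr12:4247362-4477182, minus strand) had the largest TMM-scaled change. Its lowest, median and highest levels on Day 1 were 41.5, 54.2 and 72.3 CPM with vehicle and 57.7, 61.1 and 85.3 CPM with 50 mg/kg. At 100 mg/kg they were 120, 140 and 286 CPM and at 200 mg/kg 113, 173 and 229 CPM. All mice at the 2 higher doses thus lay above all mice at the 2 lower ones. Relative to vehicle, the log2 fold change was 0.29 (adjusted p = 0.268) at 50 mg/kg, 1.61 ± 0.21 (adjusted p = 1.25e-05) at 100 mg/kg and 1.67 ± 0.18 (adjusted p = 1.69e-06) at 200 mg/kg, and the refits without 1 mouse gave 1.38 to 1.68 and 1.56 to 1.76. Without the libraries with hepatocyte genes these 2 values were 1.79 and 1.75. These values use TMM library factors, and scaling to total counts gave 0.21 (adjusted p = 0.322) and 0.14 (adjusted p = 0.417). Only at 1 point in the order of Ncoa1 group means did neighbours not overlap, between vehicle on Day 0 (highest mouse 75.0 CPM) and 100 mg/kg on Day 1 (lowest mouse 120 CPM).

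Ncoa2 (SRC-2, TIF2, ENSMUSG00000005886, chr1:13139105-13374083, minus strand) changed less. Vehicle mice on Day 1 ran from 69.6 to 143 CPM (median 94.2), 100 mg/kg mice from 121 to 206 (median 125) and 200 mg/kg mice from 116 to 185 (median 150), so that all groups overlapped. It rose under TMM scaling by 0.58 ± 0.18 (adjusted p = 0.0101) and 0.68 ± 0.16 (adjusted p = 0.00213) on the log2 scale, and was lower under total-count scaling (-0.79 and -0.83).

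Ncoa3 (SRC-3, AIB1, ENSMUSG00000027678, chr2:165992636-166073242, plus strand) was lower where its paralogs were higher under TMM scaling, while with total counts Ncoa2 was lower too. Levels on Day 1 ran from 67.3 to 119 CPM with vehicle (median 90.4) and from 64.5 to 104 with 50 mg/kg (median 91.2). They ran from 28.4 to 67.1 CPM with 100 mg/kg (median 45.8) and from 27.0 to 57.8 with 200 mg/kg (median 45.4), in both cases without overlap with vehicle. The log2 fold change was 0.00 at the lowest dose, -0.92 ± 0.22 (adjusted p = 0.00218) at the middle dose and -0.96 ± 0.19 (adjusted p = 0.000444) at the highest. This fall kept its direction and its call under total-count scaling (-2.27 and -2.44) and without the libraries with hepatocyte genes (-0.70 with adjusted p = 0.0119, and -0.93). Ncoa3 shares 1.95% of its exon bases with Sulf2 on the opposite strand.

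The corepressor Nrip1 (ENSMUSG00000048490, chr16:76287400-76373827, minus strand), itself known as an estrogen-induced gene in breast cancer cells, ran from 43.9 to 55.0 CPM with vehicle on Day 1 (median 50.1). It ran from 44.6 to 70.6 CPM with 50 mg/kg (median 49.9), from 67.8 to 102 with 100 mg/kg (median 88.1) and from 63.0 to 109 with 200 mg/kg (median 101). The 2 higher doses did not overlap with vehicle. TMM-scaled log2 fold changes were 0.87 ± 0.11 (adjusted p = 1.11e-05) and 0.96 ± 0.14 (adjusted p = 3.14e-05), but -0.52 and -0.59 when scaled to total counts. Ncor1, the scaffold of a deacetylase complex, had a Day 1 range of 124 to 210 CPM with vehicle (median 157), 191 to 303 with 100 mg/kg (median 219) and 167 to 256 with 200 mg/kg (median 236). It rose by 0.56 ± 0.14 (adjusted p = 0.0036) and 0.53 ± 0.15 (adjusted p = 0.00598) on the log2 scale under TMM scaling, and was lower (-0.82 and -1.0) when scaled to total counts. Ncor1 shares 0.65% of its exon bases with Pigl and Ttc19, and Ncoa1 0.79% with 4921501I09Rik.

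Counted together, 6 of 9 members passed at 100 mg/kg on Day 1 (5 up and 1 down). At 200 mg/kg, 8 of 9 passed (5 up and 3 down). With total counts 7 passed at each dose, 0 up and 7 down, and Ncoa1 and Esr2 were not among them. Under that scaling the median gene was lower too, as given below. Shares of all genes, here and below, are for TMM factors with all mice of the comparison. Counts of members under other settings have no such share beside them. Passing genes made up 65.6% of all those tested for the 100 mg/kg dose (25.0% higher, 40.6% lower). For the 200 mg/kg dose they made up 63.5% (23.6% higher, 39.9% lower), so that the members' share was close to the background at 100 mg/kg. The members had a median log2 fold change of 0.56 for the lower of these doses and 0.53 for the higher, against -0.38 and -0.48 over all genes tested. Both comparisons use the same 6 vehicle mice. Under the study's DEG rule, which also asks for an absolute log2 fold change over 1, Ncoa1 and Esr2 remained at each of these doses with TMM factors, where 48.8% and 47.8% of genes met it, and neither did with total counts. Without the libraries with hepatocyte genes, 8 members passed at 100 mg/kg and 9 at 200 mg/kg, again without a share of all genes beside them.

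**Figure D3:**
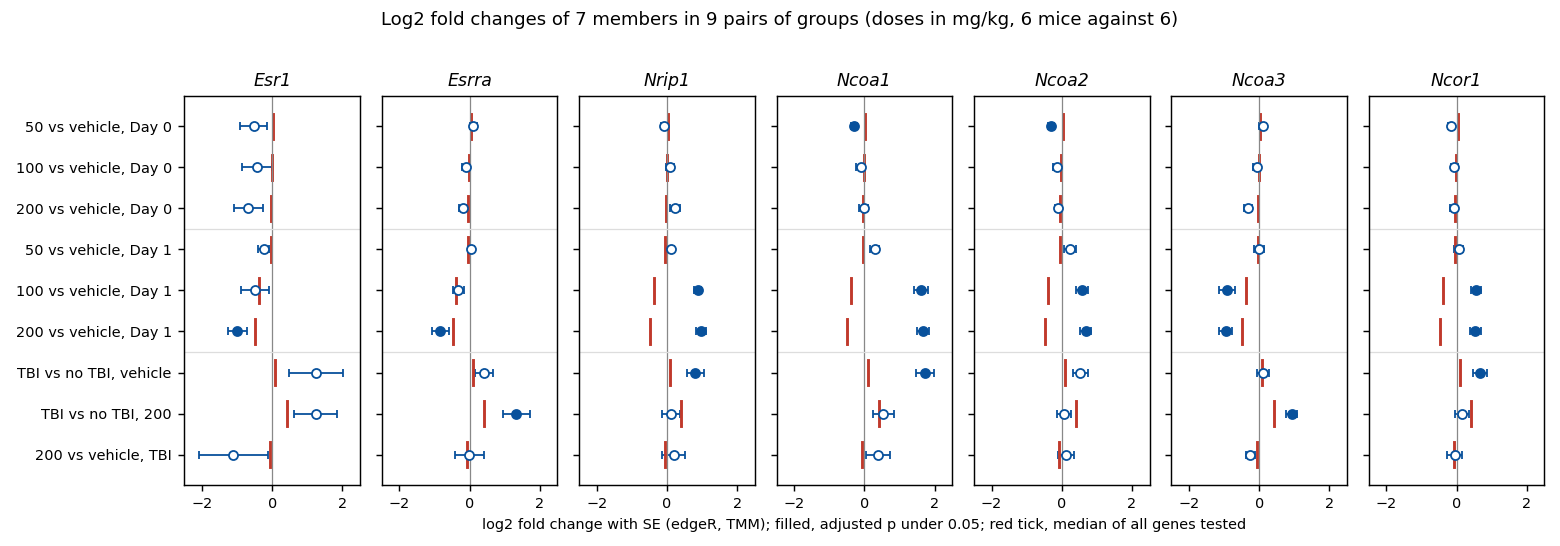
TMM-scaled log2 fold change ± SE of 7 members in 9 comparisons between 2 groups. Filled points passed an adjusted p under 0.05 and red ticks mark the median of all genes tested; at 100 and 200 mg/kg on Day 1 Ncoa1 stands at 1.61 and 1.67 and Ncoa3 at -0.92 and -0.96, around medians of -0.38 and -0.48, and under total-count scaling Nrip1, Ncoa2 and Ncor1 fall below 0 there.

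The scaling of the libraries matters for these directions. Median TMM factors were 1.45 with vehicle on Day 1 but 0.557 and 0.538 with 100 and 200 mg/kg, and the summed CPM of 4 haemoglobin genes had medians of 69508, 287014 and 344001. The noncoding RNA gene Gm26917 took a median of 7.36% of counts with vehicle and 0.278% and 0.165% with the 2 higher doses. When libraries were scaled to total counts, the median gene moved by -1.76 for 100 mg/kg and by -1.96 for 200 mg/kg. A change of scaling moves all genes of a library by 1 factor. Values relative to that median must therefore be nearly the same under both scalings, and their agreement is no test of the result. At 200 mg/kg Ncoa1 stood 2.15 above the median gene with TMM and 2.10 above it with total counts on the log2 scale. Nrip1 stood 1.45 and 1.37 above it, Ncoa2 1.16 and 1.13, and Ncor1 1.02 and 0.96. Esrra (-0.35 and -0.33), Ncoa3 (-0.48 and -0.48) and Esr1 (-0.51 and -0.48) stood below it. At 100 mg/kg Ncoa1 was 1.99 and 1.97 above the median gene and Ncoa3 -0.54 and -0.52 relative to it, while Esr1 (-0.10 and -0.06) and Esrra (0.06 and 0.02) stood near it.

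**Figure D4:**
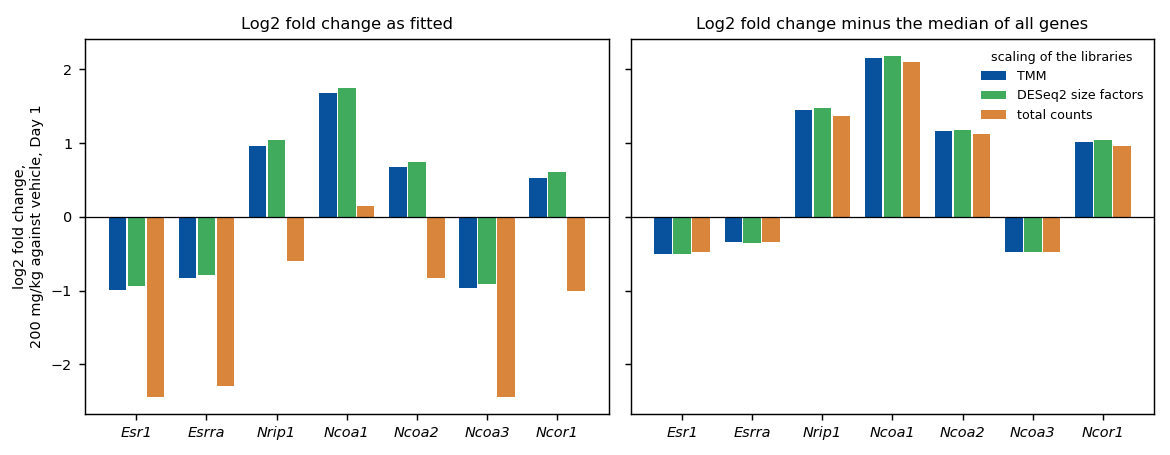
Log2 fold change at 200 mg/kg against vehicle on Day 1 under TMM factors, DESeq2 size factors and total counts, as fitted and after subtracting the median of all genes tested. As fitted, Nrip1, Ncoa2 and Ncor1 change sign with total counts. Relative to the median gene Ncoa1 is at 2.15 and 2.10 with TMM and total counts, close together because scaling moves all genes of a library alike.

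Ratios of members within a library do not depend on its scaling, but they restate the changes given above and do not test them anew. On Day 1 the ratio of Ncoa1 to Ncoa3 counts averaged 0.628 (range 0.570 to 0.798) in vehicle mice and 0.771 (0.589 to 0.943) in the 50 mg/kg group. It averaged 3.76 (2.42 to 5.32) with 100 mg/kg and 4.07 (2.43 to 6.15) with 200 mg/kg, so that the ratio was 5.99 and 6.49 times the vehicle mean with no overlap. Levels per kilobase here divide by all annotated exons of a gene, not by the length of the transcripts expressed. Of the summed p160 level per kilobase, Ncoa1 made up 27.1% in vehicle mice (25.8% to 31.3%) and 56.2% (49.8% to 60.2%) with 200 mg/kg. Ncoa3 made up 47.1% (42.7% to 49.9%) and 16.2% (10.6% to 22.3%), and Ncoa2 held 25.8% (24.0% to 28.1%) and 27.6% (25.2% to 29.6%). The shares of Ncoa1 and Ncoa3 did not overlap between these groups, and that of Ncoa2 did. Against Ncor1, Ncoa1 moved from a count ratio of 0.348 (0.329 to 0.408) with vehicle to 0.758 (0.641 to 0.894) with 200 mg/kg, and Ncoa3 from 0.557 (0.512 to 0.590) to 0.205 (0.107 to 0.266). Ncoa2 to Ncor1, at 0.605 (0.563 to 0.683) and 0.680 (0.582 to 0.811), and Nrip1 to Ncor1, at 0.319 (0.259 to 0.445) and 0.418 (0.378 to 0.448), overlapped.

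**Figure D5:**
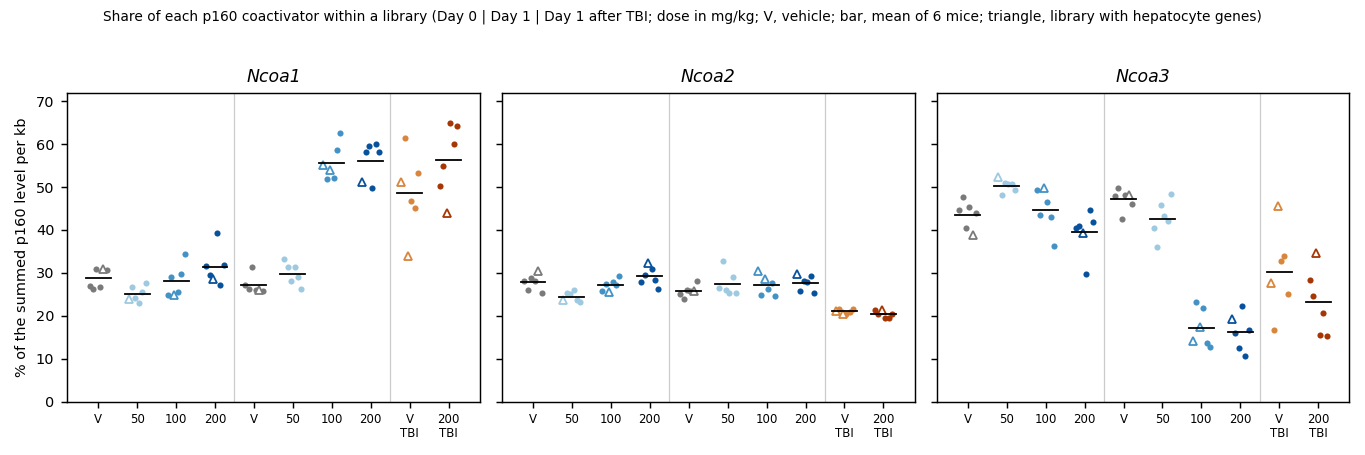
Share of the summed p160 level per kilobase of annotated exon (percent) taken by Ncoa1, Ncoa2 and Ncoa3 in each mouse, by group. At 100 and 200 mg/kg on Day 1 Ncoa1 averages 55.7% and 56.2% against 27.1% with vehicle, and Ncoa3 averages 17.2% and 16.2% against 47.1%.

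On Day 1 members passed between 50 and 100 mg/kg and not between 100 and 200 mg/kg. In a fit of the 4 dose groups, 4 members passed from 50 to 100 mg/kg (3 higher and 1 lower), where 60.9% of all genes passed (26.0% higher and 34.9% lower), and with total counts 5 passed, 0 up and 5 down. Under TMM scaling Ncoa1 rose by 1.32 ± 0.20 (adjusted p = 3.56e-06), Nrip1 by 0.77 ± 0.14 (adjusted p = 3.61e-05) and Ncor1 by 0.50 ± 0.14 (adjusted p = 0.00364) on the log2 scale, with Ncoa1 at 0.25 (adjusted p = 0.233), Nrip1 at -0.27 and Ncor1 at -0.56 under total-count scaling. Relative to the median gene these 3 steps were 1.63, 1.08 and 0.82. Ncoa3 fell by 0.92 ± 0.20 (adjusted p = 0.000332). With the libraries that held hepatocyte genes left out, 7 members passed this step, among them Esr1 (-1.13, adjusted p = 0.000339) and Esrra (-0.52, adjusted p = 0.0279), which stood at -0.22 and -0.36 with all mice. The 60.9% of all genes belongs to the fit with all mice and TMM factors. From 100 to 200 mg/kg none of the 9 members and 0% of genes passed with edgeR, though 2536 genes, Esrra among them, had an unadjusted p under 0.05. Esrra had the lowest p of the members there, with a log2 step of -0.52 ± 0.21 (adjusted p = 0.434), and Ncoa1 had a step of 0.05. Fitted as a slope on dose, all 9 members passed, 5 higher and 4 lower, where 64.4% of genes passed (23.5% higher and 40.9% lower). With total counts, for which no share of all genes is given, 7 passed, 0 up and 7 down, without Ncoa1 and Esr2. Per 100 mg/kg, Ncoa1 rose by 0.92 ± 0.14 (adjusted p = 8.85e-06) with TMM factors and by 0.09 (adjusted p = 0.369) with total counts. Esrra fell by 0.45 ± 0.11 (adjusted p = 0.000849) and Esr1 by 0.49 ± 0.17 (adjusted p = 0.0131) per 100 mg/kg, and both had steeper slopes with total counts (-1.24 and -1.27).

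At 50 mg/kg on Day 1 none of the 9 members passed, 2 genes did in all (0.00829%), and 4458 had an unadjusted p under 0.05, Ncoa1 among them. DESeq2 called 861 genes higher and 344 lower in that comparison. Between vehicle mice on Day 1 and Day 0 no member and 0% of genes passed with edgeR (3007 genes at an unadjusted p under 0.05, with 167 higher and 610 lower by DESeq2), and Ncoa1 had a log2 difference of -0.35 (adjusted p = 0.248).

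On Day 0, Ncoa1 and Ncoa2 were lower at 50 mg/kg with TMM factors, opposite in sign to the higher doses on Day 1. Ncoa1 ranged from 64.0 to 75.0 CPM with vehicle (median 71.2) and from 48.2 to 66.5 with 50 mg/kg (median 57.3), with an overlap of both groups between 64.0 and 66.5 CPM. Ncoa2 ranged from 101 to 144 CPM with vehicle (median 124) and from 91.4 to 112 with 50 mg/kg (median 100), also overlapping. The log2 fold changes with TMM factors were -0.30 ± 0.07 for Ncoa1 (adjusted p = 0.0192, -0.35 to -0.26 and called in each refit without 1 mouse, but adjusted p = 0.55 in 1 fit of all 60 mice) and -0.30 ± 0.09 for Ncoa2 (adjusted p = 0.0393, called in 4 of 12 refits, adjusted p 0.0122 to 0.0906). With total counts both were 0.37, and the median gene moved from 0.03 to 0.69, so that relative to it both genes stood 0.31 to 0.33 lower under either scaling. Leaving out the libraries with hepatocyte genes, Ncoa1 still passed (-0.30, adjusted p = 0.0415) and Ncoa2 did not (-0.31, adjusted p = 0.0704). These 2 of 9 members compare with 14.1% of 24485 genes called. The members' median was -0.25 against 0.03 over all genes. The Ncoa3 share of the summed p160 level per kilobase was 50.4% (48.2% to 52.4%) in these mice against 43.5% (38.7% to 47.6%) in vehicle mice, without overlap. The 7 platelet genes had a median sum of 1464 CPM at 50 mg/kg and 3377 CPM with vehicle, and the 4 haemoglobin genes 28151 and 91724 CPM. Their part in the Ncoa1 and Ncoa2 difference was not tested.

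At 100 and 200 mg/kg on Day 0 none of the 8 members tested passed, and 0% of genes did with edgeR. At an unadjusted p under 0.05 there were 726 and 2145 genes, with 0 members at 100 mg/kg and Ncoa3 at 200 mg/kg (log2 fold change -0.32, adjusted p = 0.546). By DESeq2 the lower of these doses had 1 gene higher and 4 lower, and the higher dose 4 and 0. Nrip1 at 200 mg/kg reached 85.9 CPM in 1 mouse (median 51.4, against 50.5 with vehicle). No member passed from 50 to 100 mg/kg (5.53% of genes called), from 100 to 200 mg/kg (0%, with 2236 genes at an unadjusted p under 0.05) or in the slope on dose (0.00382%). Whether a dose acted differently on the 2 days was tested directly. The Day 1 effect minus the Day 0 effect passed for Ncoa1 at all 3 doses under TMM scaling, with log2 differences of 0.59 ± 0.16 (adjusted p = 0.0114) at 50 mg/kg, 1.73 (adjusted p = 1.09e-05) at 100 mg/kg and 1.72 (adjusted p = 2.86e-06) at 200 mg/kg, while total counts gave -0.41, 0.27 (adjusted p = 0.359) and 0.44 (adjusted p = 0.0627). The Esr1 day difference was -0.06 (adjusted p = 0.938) at 100 mg/kg and -0.29 (adjusted p = 0.639) at 200 mg/kg. When the libraries with hepatocyte genes were left out it passed, with -1.35 (adjusted p = 0.00251) for the lower and -0.95 (adjusted p = 0.0149) for the higher of these doses. In total 1, 5 and 7 of 9 members passed, in the order of the doses, and with total counts 5, 6 and 6 did, each with a negative difference. Among all genes, with TMM factors, 17.5% passed for 50 mg/kg, 54.2% for 100 mg/kg (20.7% higher, 33.5% lower) and 48.8% for 200 mg/kg (18.7% higher, 30.2% lower). Ncoa3 was lower on Day 1 relative to Day 0 at 100 mg/kg (-0.85, adjusted p = 0.00643) and 200 mg/kg (-0.63, adjusted p = 0.0222), and neither passed without the libraries with hepatocyte genes (-0.56, adjusted p = 0.0668, and -0.59, adjusted p = 0.0503).

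Ncoa1 was also higher after irradiation without BIO 300. In TBI vehicle mice it ranged from 90.5 to 316 CPM (median 171), above all unirradiated vehicle mice of either day, and in TBI mice given 200 mg/kg from 107 to 396 CPM (median 243). The log2 difference between irradiated and unirradiated vehicle mice was 1.73 ± 0.26 on Day 1 (adjusted p = 0.000213, 1.53 to 1.91 without 1 mouse) and 1.53 ± 0.27 against Day 0 (adjusted p = 0.000963), and stayed called with total counts (1.24 and 1.21). Nrip1 ranged from 55.6 to 169 CPM in TBI vehicle mice (median 70.0), also without overlap with unirradiated vehicle mice. It rose by 0.80 ± 0.24 against Day 1 (adjusted p = 0.0172) under TMM scaling and was not called with total counts (0.29, adjusted p = 0.122). Ncor1, at 154 to 323 CPM (median 272), rose by 0.66 ± 0.20 (adjusted p = 0.0189), a call lost without mouse 25 (0.61, adjusted p = 0.0544) and with total counts (0.21, adjusted p = 0.218). Relative to the median gene the 3 stood 1.64, 0.72 and 0.57 higher with TMM factors and 1.51, 0.56 and 0.49 with total counts. Esr2 passed on its 20 counts (adjusted p = 0.0164 against Day 1 and 0.0401 against Day 0, the latter in 4 of 12 refits, 0.0215 to 0.0939, and 0.0571 with total counts).

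Ncoa3, which fell with BIO 300, did not pass with irradiation: TBI vehicle mice ranged from 79.4 to 117 CPM (median 102) and the log2 difference from vehicle on Day 1 was 0.11 (adjusted p = 0.588). Ncoa2 (0.53 ± 0.21, adjusted p = 0.0512) passed without mouse 30 (0.67, adjusted p = 0.0189), without mouse 51 (0.65, adjusted p = 0.0134) and without the libraries with hepatocyte genes (0.75, adjusted p = 0.00769). Esrra ranged from 6.95 to 25.9 CPM (median 13.4), with mice 51 and 49 at 25.9 and 16.0 CPM and the others at 6.95 to 13.6. Its log2 difference was 0.41 ± 0.25 (adjusted p = 0.191), 0.55 (adjusted p = 0.0408) without mouse 50, and 0.09 (adjusted p = 0.665) without the libraries with hepatocyte genes. Within the p160 family the Ncoa2 share was 21.0% (20.3% to 21.7%) in TBI vehicle mice, below all unirradiated vehicle mice, and Ncoa1 took 48.7% (34.0% to 61.5%). In all, 4 of 9 members passed against vehicle on Day 1 (4 higher), where 46.8% of genes did (24.4% higher and 22.4% lower), and 3 against vehicle on Day 0, where 36.4% did. Ncoa1 and Esr2 met the DEG rule in each, with 36.0% and 26.9% of genes. The members' median was 0.72 against Day 1 and 0.58 against Day 0, beside 0.09 and 0.18 over all genes. Without the libraries with hepatocyte genes, for which no share of all genes is given, the numbers passing were 6 and 5. Ncor1 against Day 0 was then 0.73 (adjusted p = 0.0013) in place of 0.58 (adjusted p = 0.0526), and it also passed without mouse 51 alone (0.68, adjusted p = 0.00212). The 8 B cell genes had a median sum of 174 CPM in TBI vehicle mice against 1674 CPM in vehicle mice on Day 1, the 8 neutrophil genes 4595 against 582 CPM, and the 7 platelet genes 14397 against 2347 CPM, and their part in these differences was not tested.

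Among irradiated mice, 200 mg/kg and vehicle were not told apart at any member. No gene passed with edgeR (0% of 24916, with 688 genes and 0 members at an unadjusted p under 0.05), and DESeq2 called 0. The log2 differences were 0.38 ± 0.35 for Ncoa1, -0.25 ± 0.13 for Ncoa3, 0.19 for Nrip1, -0.06 for Ncor1 and -1.11 ± 0.98 for Esr1 (adjusted p 0.9999 for each), which does not show that the groups were alike. The Esr1 difference was 0.19 without the libraries with hepatocyte genes, and ran from -2.25 to 0.29 in the refits without 1 mouse. Whether the 200 mg/kg effect differed with TBI was tested as an interaction, in which 2 of 9 members and 33.9% of genes passed. For Ncoa3 the effect was 0.93 ± 0.22 higher with TBI (adjusted p = 0.00246), and it passed with total counts (2.02, adjusted p = 0.000104) and without the libraries with hepatocyte genes (0.93, adjusted p = 0.00421). For Ncoa1 it was -1.06 ± 0.39 (adjusted p = 0.0388) with TMM factors and 0.090 (adjusted p = 0.805) with total counts, where the median gene moved by 0.60 and 1.68. Relative to the median gene, the Ncoa1 interaction was -1.66 and -1.59 and that of Ncoa3 0.33 and 0.34. Without the libraries with hepatocyte genes 6 members passed, with Esr1 at 1.57 (adjusted p = 0.00482) and Esrra at 1.17 (adjusted p = 0.00422) beside Ncoa1 and Ncoa3, and Gper1 and Esr2 on few counts. The 33.9% of genes and the median gene at 0.60 belong to the fit with all mice, and these 6 are not set against either.

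Irradiated mice given 200 mg/kg, compared with unirradiated mice given 200 mg/kg on Day 1, had higher Ncoa3 and Esrra with TMM factors. Ncoa3 ranged from 77.9 to 90.0 CPM (median 86.3) against 27.0 to 57.8, without overlap, and rose by 0.92 ± 0.16 on the log2 scale (adjusted p = 0.000893). Esrra ranged from 7.70 to 32.7 CPM (median 10.8) against 2.39 to 8.88 and rose by 1.33 ± 0.38 (adjusted p = 0.0191), and by 1.07 (adjusted p = 0.00255) without the libraries with hepatocyte genes, among them mouse 57 at 32.7 CPM. Gper1 also passed (43 against 3 counts, adjusted p = 0.0470), in 4 of 12 refits without 1 mouse (0.0138 to 0.0847) and not by DESeq2 (adjusted p = 0.0822). These 3 of 9 members, all higher, compare with 27.2% of genes (17.6% higher and 9.58% lower), and 2 of them, with 20.6% of genes, met the DEG rule. Without mouse 57, Ncoa1 (0.85, adjusted p = 0.00534) and Ncor1 (0.42, adjusted p = 0.0259) passed as well. With all libraries with hepatocyte genes left out, Ncoa1 passed (0.63, adjusted p = 0.0469) and Ncor1 did not (0.18, adjusted p = 0.404). The members' median was 0.54 and that of all genes 0.41. With total counts 8 members passed, all but Esr2 and each higher, among them Ncoa1 (1.33), Ncor1 (1.02), Nrip1 (0.94) and Ncoa2 (0.89).

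Other genes of estrogen signalling were counted in 6 lists of 77 genes in all, beside the shares of all genes that passed. Of 30 other coregulators, 8 were higher and 14 lower at 200 mg/kg on Day 1 (all genes 23.6% and 39.9%), with a median log2 fold change of -0.35 beside -0.48 for all genes. With total counts, for which no share of all genes is given, 0 were higher and 25 lower. Ncoa4, a receptor coactivator that also delivers ferritin for iron release in red cell precursors, had a mean of 999 CPM with vehicle and 3671 CPM with 200 mg/kg (log2 fold change 1.94, and 0.44 with total counts, adjusted p = 0.0501). Trim24, a coregulator that reads chromatin, went from 47.2 to 148 CPM (1.71, and 0.15 with total counts, adjusted p = 0.245), and Ppargc1b, a coactivator of Esrra, from 4.84 to 1.39 CPM (-1.69 and -3.11). At 50 mg/kg on Day 0, 3 of the 30 were higher and 6 lower (all genes 4.21% and 9.87%), among them Ncoa4 (1644 to 546 CPM, -1.58), Ncoa7 (276 to 98.4 CPM, -1.48) and the arginine methyltransferase Carm1 (61.5 to 30.6 CPM, -1.0), all lower with total counts too (-0.93, -0.84 and -0.33). At 100 mg/kg on Day 1, 9 were higher and 16 lower (all genes 25.0% and 40.6%), led by Trim24 (1.80, and 0.39 with total counts), Safb2 (-1.71) and Ncoa4 (1.66, and 0.31 with total counts). In TBI vehicle mice 5 were higher and 7 lower than vehicle on Day 1 (all genes 24.4% and 22.4%), with a median of -0.22 beside 0.09, and the largest changes were those of Ncoa5 (16.2 to 6.57 CPM, -1.34), the methyltransferase Prmt1 (-1.31) and the deacetylase Hdac2 (17.0 to 7.53 CPM, -1.21). TBI mice given 200 mg/kg had lower Ncoa4 (3671 to 1041 CPM, -1.90), Ncoa7 (432 to 124 CPM, -1.88) and Carm1 (118 to 39.2 CPM, -1.67) than unirradiated mice at that dose, within 4 higher and 6 lower (all genes 17.6% and 9.58%).

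Of 11 related nuclear receptors tested at 200 mg/kg on Day 1, 2 were higher and 4 lower, beside 23.6% and 39.9% of all genes. The thyroid hormone receptor gene Thra went from 6.82 to 3.89 CPM (-0.73), and the oxysterol receptor gene Nr1h2 from 28.6 to 54.3 CPM (1.00 with TMM factors and -0.52 with total counts). Irradiated vehicle mice had 7 of 12 higher and 0 lower than vehicle on Day 1 (all genes 24.4% and 22.4%). Rara, a retinoic acid receptor gene, went from 54.4 to 146 CPM (1.41, 0.99 with total counts and 1.69 without the libraries with hepatocyte genes), whereas Rxra (1.90) stood at 0.27 without those libraries and was then not called. Among 15 estrogen target genes tested, 4 were higher and 4 lower at 200 mg/kg on Day 1 (all genes 23.6% and 39.9%). Ctsd, the lysosomal protease cathepsin D, went from 108 to 500 CPM (2.29, and 0.75 with total counts, called in both), and the survival gene Bcl2 from 87.1 to 27.3 CPM (-1.59). With irradiation 7 of 15 were higher and 2 lower (all genes 24.4% and 22.4%), and C3 (4.92, and 1.15 without the libraries with hepatocyte genes), Cxcl12 (4.63 and 1.71) and Pdzk1 (3.23 and -0.42) were smaller or of the other sign in the second value of each pair.

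Of 5 chaperones of steroid receptors, 3 were higher at 200 mg/kg on Day 1, beside 23.6% of all genes: Hsp90aa1 (50.9 to 71.7 CPM, 0.57), Stip1 (0.48) and Ptges3 (0.30), all 3 lower with total counts (-0.95, -1.05 and -1.24). Of 6 genes of estrogen synthesis and metabolism tested, 0 were higher and 2 lower (all genes 23.6% and 39.9%), among them the hydroxysteroid dehydrogenase gene Hsd17b12 (13.6 to 6.02 CPM, -1.08). Among 6 genes of other proteins that genistein acts on, 2 were higher and 1 lower, against the same shares of all genes. Top2a, the topoisomerase of dividing cells, went from 40.1 to 208 CPM (2.44, and 0.89 with total counts, called in both), Pparg from 2.33 to 4.14 CPM (0.91, and -0.55 with total counts) and Top2b from 122 to 82.9 CPM (-0.49). Top2a was lower at 50 mg/kg on Day 0 (50.1 to 22.7 CPM, -1.13, and -0.47 with total counts, called in both). Between irradiated mice with and without BIO 300 no gene of any list passed.

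Over the 60 mice, the genes whose log2 levels followed a member most closely were compared among 13484 genes, as a description without a test, since mice of a group share treatment and libraries share their scaling. Prkca and Maml3 followed Ncoa1 with Pearson correlations of 0.989 and 0.987 (0.991 and 0.989 in the 49 mice without hepatocyte genes). Dock8 and Zmiz1 followed Ncoa3 at 0.963 and 0.961, Rc3h1 and Gna13 followed Nrip1 at 0.948 and 0.946, Marf1 and Dopey2 followed Ncoa2 at 0.947 and 0.936, and Bbx and Inpp5d followed Ncor1 at 0.933 and 0.932. For Esrra the nearest genes were Flot2 at 0.900 and Fbxo18 at 0.898. For Esr1 they were Pcyox1 and Sec24a, at 0.951 and 0.945 in all mice and at 0.840 and 0.803 in the 49 without hepatocyte genes, a larger fall than that of the genes nearest to any other member. Among the members themselves Ncoa1 ran with Nrip1 at 0.917 and with Ncor1 at 0.911, and Ncoa2 with Ncor1 at 0.912, whereas Ncoa3 stood at -0.427 with Nrip1 and -0.345 with Ncoa1. With each group's mean subtracted, Ncoa3 stood at -0.011 with Nrip1 and 0.176 with Ncoa1. Ncoa1 then ran with Nrip1 at 0.805 and with Ncor1 at 0.887, and Ncoa2 with Ncor1 at 0.901.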

How the data were processed

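RNA from PAXgene-stabilised whole blood of 60 mice was sequenced by the authors. The paper's methods name a stranded total RNA kit with ribosomal and globin RNA depletion and the labels name poly(A) selection on a NextSeq 500, and which applied was not settled here. Per the submitters' processing notes, reads were trimmed with Trimmomatic 0.36, aligned to GRCm38 with STAR 2.5.2b and counted with Subread 1.5.2. The annotation release and strand setting are not given in the sources used here. The deposited values are raw counts per gene, in 10 tables that repeat 60 columns with 0 differing values. The authors' DESeq2 result tables hold fold changes, p-values and 120 further per-mouse columns, of which only gene symbols (18516) were used; names of Esr2 and Gper1, exon lengths and coordinates came from GENCODE M21, which holds 49056 of the 49315 IDs.

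Counts were tested in R 4.3.3 with edgeR 4.0.16 (quasi-likelihood F-test, TMM factors, genes with at least 10 counts summed over the mice fitted, Benjamini-Hochberg adjustment over all genes tested). A gene passed with an adjusted p under 0.05. SE is the absolute log2 fold change over the square root of F. In all 21 comparisons were made: 11 pairs of groups on their 12 mice, 4 dose steps and 2 slopes (per 100 mg/kg) on the 24 unirradiated mice of a day, and 4 interactions. CPM divides counts by the TMM-scaled library total. Figures used Python 3.11.15 and matplotlib 3.10.9. Scripts were tested on simulated data. DESeq2 1.42.0, its size factors, total counts, no filter, filterByExpr, 1 fit of all 60 mice, the DEG rule, each mouse left out, and the libraries with hepatocyte genes left out were the alternatives. No 2 libraries of a group agreed within sampling noise. Counting error alone sets the floor of 3 counts.

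Members and gene lists were chosen with earlier results of these data known. Text names all 9 members and, per list and comparison, up to 3 genes that passed with at least 1 CPM and the largest absolute log2 fold change, and 2 genes nearest to each member by Pearson correlation of log2(CPM + 1). Esr2 and Gper1 are given as counts, without folds, because so few reads covered them. The p-values set differences between groups against the spread between mice of a group. Cage and irradiation box were not entered in the fits. Some genes that the rule would name are not reported here.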

Additional observations from a re-analysis of the deposited data

Results flagged for a closer look

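Within groups of 6 mice, the gap of the highest or lowest mouse to its neighbour was compared with the group's range by Dixon's test at its 95% critical value. For independent, normally distributed values chance marks about 1 in 20, but the members share mice and Esr2 and Gper1 had few counts. The test marked 13 of 90 member and group combinations, and 8 of the 13 were libraries with hepatocyte genes. For Esr1 they were mouse 17 of the Day 0 vehicle group (10.8 CPM), mouse 37 at 100 mg/kg on Day 1 (4.72 CPM), mouse 43 at 200 mg/kg on Day 1 (2.14 CPM), mouse 51 of the TBI vehicle group (27.2 CPM) and mouse 57 of the TBI 200 mg/kg group (11.2 CPM). Mouse 57 was also marked for Esrra (32.7 CPM) and Gper1 (0.516 CPM), and mouse 43 for Gper1 (0.121 CPM). The other 5 were Esr2 in mouse 12 at 100 mg/kg on Day 0 (0.171 CPM), Esrra in mouse 28 of the Day 1 vehicle group, which was low (9.52 CPM), Nrip1 in mouse 22 at 200 mg/kg on Day 0 (85.9 CPM), and Ncoa1 (286 CPM) and Ncoa2 (206 CPM) in mouse 42 at 100 mg/kg on Day 1.

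A test of the difference between effects passed in 15 of 36 cases (edgeR interaction terms, adjusted p under 0.05). For Day 1 against Day 0 these were, as log2 differences under TMM scaling, Ncoa1 at 50 mg/kg (0.59), then Ncoa1 (1.73), Nrip1 (0.80), Ncoa2 (0.72), Ncor1 (0.64) and Ncoa3 (-0.85) at 100 mg/kg, and Ncoa1 (1.72), Ncoa2 (0.80), Nrip1 (0.77), Ncor1 (0.65), Ncoa3 (-0.63), Esrra (-0.63) and Esr2 (adjusted p = 0.0292, few counts) at 200 mg/kg. For the 200 mg/kg effect with and without TBI they were Ncoa1 (-1.06) and Ncoa3 (0.93). With total counts Nrip1, Ncoa2 and Ncor1 took the other sign in the day differences at 100 and 200 mg/kg, as did Ncoa1 in the day difference at 50 mg/kg and with TBI, and the Ncoa1 day differences at 100 and 200 mg/kg no longer passed (adjusted p = 0.359 and 0.0627).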

How the results depend on the processing

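No paired analysis was possible because replicate numbers are animal numbers, which no 2 groups share. Directions depended most on the scaling. With total counts the log2 values of called or newly called members took the other sign as follows. At 50 mg/kg on Day 0 Nrip1 was 0.57, Ncoa1 0.37, Ncoa2 0.37 and Ncor1 0.51. On Day 1 Nrip1, Ncoa2 and Ncor1 were -0.52, -0.79 and -0.82 with 100 mg/kg and -0.59, -0.83 and -1.0 with 200 mg/kg. From 50 to 100 mg/kg Nrip1, Ncoa1, Ncoa2 and Ncor1 were -0.47, -0.44, -0.43 and -0.50 on Day 0, and Nrip1, Ncoa2 and Ncor1 were -0.27, -0.70 and -0.56 on Day 1. Day 1 slopes of these 3 were -0.29, -0.45 and -0.52. The day difference at 50 mg/kg was -0.82 for Nrip1, -0.41 for Ncoa1, -0.47 for Ncoa2 and -0.76 for Ncor1. For Nrip1, Ncoa2 and Ncor1 it was -0.62, -0.73 and -0.82 at 100 mg/kg and -0.52, -0.47 and -0.66 at 200 mg/kg. The TBI difference was 0.66 for Nrip1, 0.090 for Ncoa1, 0.79 for Ncoa2 and 0.81 for Ncor1. This scaling moves all genes of a library by 1 factor, and the median gene then stood at -1.96 for 200 mg/kg on Day 1. Without the libraries with hepatocyte genes, Esr1 with TBI was -0.92 against Day 0 vehicle and -0.98 against Day 1 vehicle.

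The number of members passing also moved, and no share of all genes is set beside the counts under other settings. At 50 mg/kg on Day 0 it was 2, and 6 with total counts, 1 without a filter, 0 in 1 fit of all 60 mice, 1 without the libraries with hepatocyte genes and 0 under the DEG rule. That rule left 2 for each of the higher doses on Day 1, and 2 for TBI against Day 1 vehicle, where total counts also gave 2. For vehicle on Day 1 against Day 0, DESeq2 called 1 (Ncoa1, -0.36). Total counts gave 8 for TBI 200 mg/kg against 200 mg/kg, 6 from 50 to 100 mg/kg on Day 0, 5 for the day difference at 50 mg/kg (2 with filterByExpr) and 6 for the TBI difference. Leaving out the libraries with hepatocyte genes gave 5 for TBI against Day 0 vehicle, 7 from 50 to 100 mg/kg on Day 1 and 6 for the TBI difference. Leaving out those libraries was planned for pairs of groups and was added for steps, slopes and interactions after seeing the data. The cause of the other changes was not tested. Without 1 mouse the numbers passing ran from 1 to 2 at 50 mg/kg on Day 0, 5 to 7 and 7 to 9 for 100 and 200 mg/kg on Day 1, 2 to 4 and 3 to 5 for TBI against Day 0 and Day 1 vehicle, 2 to 4 for TBI 200 mg/kg against 200 mg/kg, and 0 to 0 in the other 5 pairs. Of 1015 member values under other settings, 897 kept direction and side of the threshold, 29 lost the call, 53 gained it and 36 changed sign. Of 1157 values in the pairs of groups without 1 mouse, 1109 kept both, 39 lost the call, 9 gained it and 0 changed sign while called. A further 111 values changed sign without being called before or after. Depth limits Esr2 and Gper1, which were read 84 and 231 times in all.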
